A study of Danio rerio with 12 samples.

Results

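Sox3 binding at 36 hours post-fertilization (hpf) was compared between tp63-/- mutant and wild-type (WT) zebrafish embryos, with 2 ChIPmentation libraries per genotype. These 4 libraries were chosen by their labels (antibody, stage and genotype) from the 12 of the series, whose other libraries hold p63 at 3 stages and Sox3 at 2 earlier stages in WT embryos. ChIPmentation is chromatin immunoprecipitation in which the Tn5 transposase adds the sequencing adaptors to the captured DNA, and the deposited data are peak lists called on each library separately. The question put by the study is whether Sox3 occupies chromatin differently when p63 is lost.

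The mutant allele is a small CRISPR/Cas9 deletion that creates a premature stop codon in all tp63 isoforms. Homozygous embryos were recognised by their phenotype (no pectoral fin buds, reduced fin fold), which can first be seen at 36 hpf. Both groups were pools of whole embryos at 36 hpf with the same antibody. Per the study's methods the mutant pools held far fewer embryos than the WT pools and were lysed in a smaller volume, so the amount of starting material cannot be told apart from genotype. In whole embryos a different number of Sox3-expressing cells and a different occupancy per cell cannot be told apart either.

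Sox3 belongs to the SoxB1 family of HMG-box transcription factors, which keep cells of the neural plate and the later nervous system in a progenitor state. p63 is a member of the p53 family that is required for the epidermis and its appendages. Both are expressed in the ectoderm, the germ layer that gives rise to nervous system and skin, and they share many binding regions in the embryo.

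The 4 lists differed in length in the same order as in depth. The mutant lists held 81578 (replicate 1) and 59786 (replicate 2) peaks, against 51504 (replicate 1) and 29082 (replicate 2) in the WT lists. The number of tags behind each peak call, recovered from the deposited values as described under processing, was 14.1 and 12.9 M (M, megatags) in the mutant libraries, against 7.97 and 5.75 M in the WT libraries. This is the number of tags that entered the call and not the number of reads sequenced. The read totals that the study lists do not separate the genotypes in this way, so depth here means tags behind the call. By that measure both mutant libraries were deeper than both WT libraries, and a list shows only what passed its threshold at that depth. The lowest -log10 q (q is the p-value corrected for the number of tests made by the peak caller) lay between 3.03 and 3.10 in all 4 lists.

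Merging overlapping peaks of the 4 lists (by 1 bp or more) gave 102840 regions. A peak in all 4 lists was found in 22511 of them (21.9%), called shared regions here, and 90.7% of the shared regions held exactly 1 peak per list. A further 46368 regions (45.1%) rested on a peak in a single list. Peaks in both mutant lists and neither WT list marked 13367 regions, called mutant-only, against 262 WT-only regions with peaks in both WT lists and neither mutant list. When each list was cut to the same number of its most significant peaks, these classes held 2408 mutant-only and 1173 WT-only regions, and when tags were scaled to the shallowest library they held 8812 and 427.

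**Figure D1:**
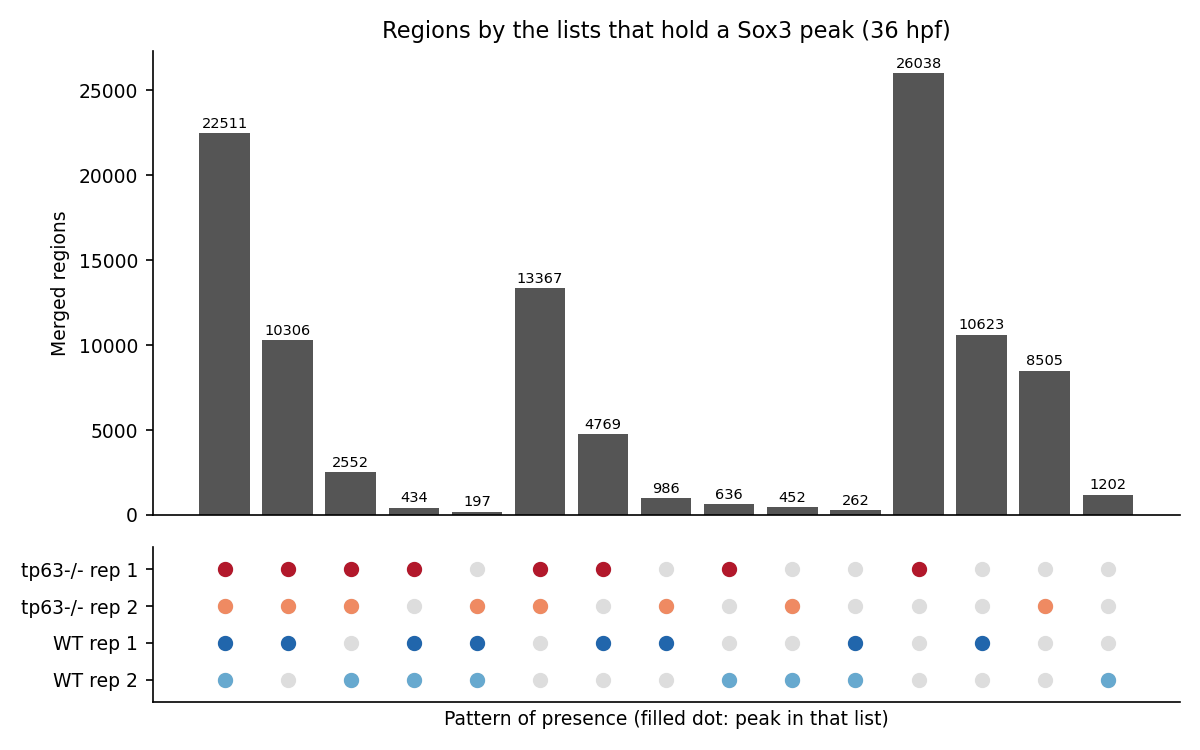
Number of merged regions (vertical axis) for each pattern of presence among the 4 lists, with a filled dot below each bar for every list that holds a peak. The largest bar (26038 regions) rests on mutant replicate 1 alone, the deepest library, and the next (22511) on all 4 lists.

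The shared regions stood above the middle of each list. They took 28.3% and 38.5% of the peaks of the mutant lists, against 45.9% and 80.2% of those of the WT lists. Ranked among all peaks of their own list by -log10 q, the median shared region stood at percentile 85.5 and 80.4 in the mutants, against 77.2 and 60.2 in WT. The median tag pileup at the summit (the number of tags overlapping the highest point of a peak) was 52 and 46 in the mutants, against 24 and 19 in WT. Divided by the tags of the library, these pileups were 3.68 and 3.56 per megatag in the mutants, against 3.01 and 3.31 in WT, so the groups did not overlap on this scale. The exact permutation test over 2 against 2 libraries cannot give a two-sided p below 0.333, and this limit holds for every library-level value below.

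The level of Sox3 at a shared region was compared by its rank, from percentile 0 to 100 among the shared regions, of the -log10 q of the strongest peak of each list. Ranks remove depth and list length as far as they act on all regions alike. A shared region also had to pass the threshold in the shallower WT lists, so regions below it in WT were not ranked. The median -log10 q of the shared regions was 39.6 and 34.1 in the mutants, against 18.7 and 14.5 in WT. The effect of this selection on the ranks was not tested. No region passed a Benjamini-Hochberg adjusted p of 0.05 in limma on the normal scores of the ranks, in either direction (0.0% of 22511 regions, smallest adjusted p 0.301). At an unadjusted p under 0.05, 1314 regions (5.84%) ranked higher and 1653 (7.34%) ranked lower in the mutants. The ranks of both mutant libraries lay above those of both WT libraries at 5086 regions (22.6%) and below them at 5414 (24.1%). If 4 libraries of equal spread did not differ by genotype, both directions together would hold a share of about 0.333. The observed shares together exceed this. The spread was not equal, with a median rank gap of 6.82 points within the mutants and 10.1 within WT, and the excess was not tested.

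Ranks differed between genotypes about as much as between the WT replicates, and more than between the mutant replicates. The median gap in rank at a shared region was 6.82 points between the 2 mutant libraries, against 10.1 points between the 2 WT libraries. The 4 pairs of a mutant and a WT library gave 10.1 to 11.5 points. Pearson correlations of the normal scores over the 22511 regions, given as a description because regions are not replicates, were 0.89 within the mutants, 0.77 within WT and 0.73 to 0.79 between genotypes.

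**Figure D2:**
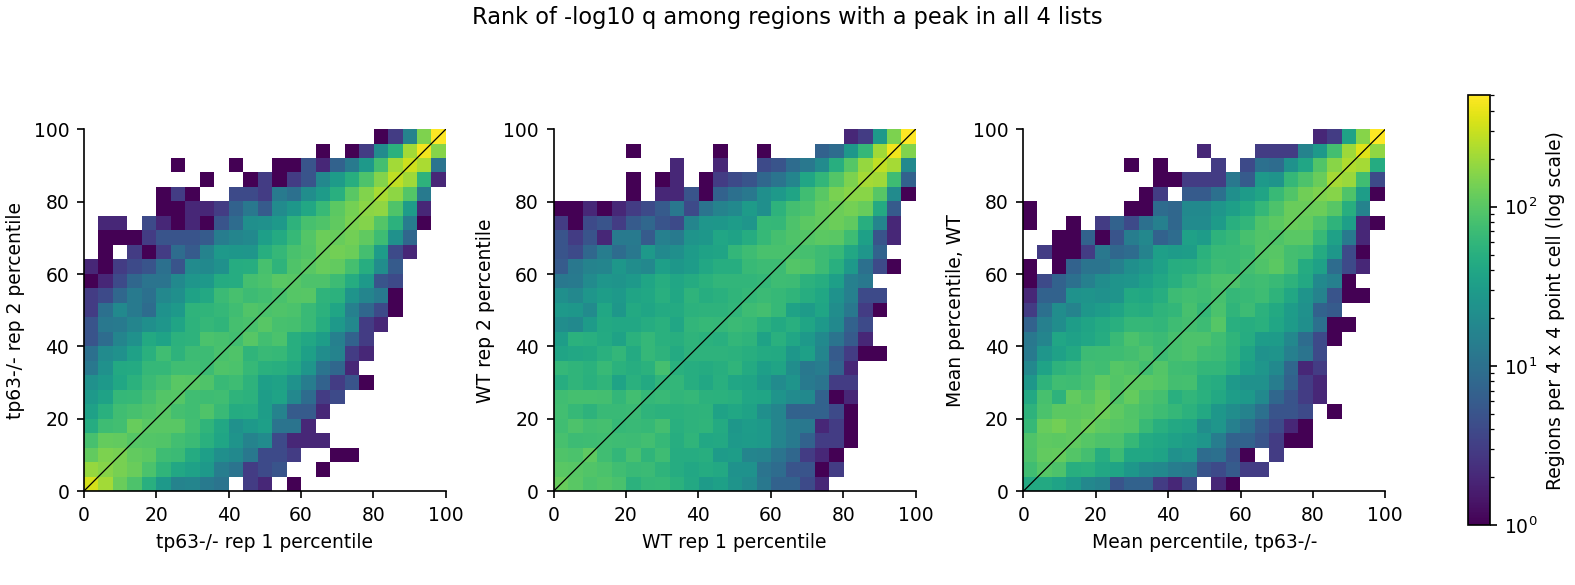
Percentile rank of -log10 q among the 22511 shared regions, for mutant replicate 1 against mutant replicate 2 (left), WT replicate 1 against WT replicate 2 (middle) and the mean of the mutants against the mean of WT (right), with the number of regions per cell in colour on a log scale. The WT pair, with a median gap of 10.1 points, scatters more widely around the diagonal than the mutant pair, with 6.82.

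Which direction prevailed depended on the scale. The counts on each scale are out of the 22511 shared regions, of which 1314 (5.84%) ranked higher and 1653 (7.34%) lower by -log10 q. With the fold enrichment of the peak ranked in place of -log10 q, 2050 regions were higher and 2437 lower in the mutants at an unadjusted limma p under 0.05. With the rank taken among all peaks of a list, which is longer in the mutants, the split was 3248 higher and 58 lower, and the median region moved by 0.45 on the normal-score scale. With the centred log2 summit pileup it was 1111 higher and 3768 lower, around a median shift of -0.14 (log2). No region passed the adjusted threshold on any of these scales, so no excess of gained or lost Sox3 signal at shared regions can be stated from these lists.

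None of the regions named next passed the adjusted threshold. They had the smallest limma p among regions of chromosomes 1 to 25 whose groups do not overlap. Coordinates are GRCz10 as deposited, and genes at these positions were not analysed here. At chr6:7324091-7324378 the percentile rank was 3.03 and 2.88 in the mutants, against 76.3 and 74.4 in WT (limma p 6.84e-05, adjusted p 0.301), the smallest p among the regions named for their rank. The raw pileup pointed the same way despite the deeper mutant libraries, with 16 and 14 tags in the mutants, against 35 and 26 in WT. Its fold enrichment was 7.51 and 6.80 in the mutants, against 14.7 and 13.3 in WT, and Sox3 also had a peak there in WT embryos at 24 hpf.

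The other regions that ranked lower in the mutants lay at chr20:27834339-27834763, chr24:18695952-18696329, chr9:18537625-18537947, chr23:35925091-35925587 and chr16:45139604-45139933. All ranked at or below percentile 2.80 in both mutant libraries. At chr20:27834339-27834763 the summits lay 34 and 63 bp from the region's start in the mutants, against 355 and 330 bp in WT. At chr23:35925091-35925587 they lay at 118 and 108 bp in the mutants, against 385 and 302 bp in WT. The peaks ranked there thus stood at different places in the genotypes. At chr24:18695952-18696329 the rank was 2.80 and 0.66 in the mutants, against 59.8 and 66.7 in WT, with pileups of 17 and 11 tags in the mutants, against 23 and 20 in WT. At chr9:18537625-18537947 the pileup was 20 and 20 tags in the mutants, against 24 and 20 in WT, and the fold enrichment 6.18 and 5.04 in the mutants, against 9.81 and 8.92 in WT. These pileups, close in number across libraries of different depth, stood at percentile 2.53 and 2.01 in the mutants, against 48.5 and 50.5 in WT.

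The 6 regions that ranked higher in the mutants were weak in WT, at percentile 10.3 or below in both WT libraries. At chr19:27659874-27660479 the rank was 52.8 and 66.9 in the mutants, against 4.63 and 3.79 in WT, with 44 and 47 tags at the summit in the mutants, against 10 and 10 in WT (limma p 4.47e-04, adjusted p 0.301). At chr4:5534232-5534698 it was 72.1 and 65.9 in the mutants, against 8.25 and 10.3 in WT, with fold enrichments of 13.8 and 11.8 in the mutants, against 6.14 and 6.20 in WT. The pileup differences at both regions exceed the ratio of the depths. At chr25:446691-447197 the rank was 70.7 and 58.3 in the mutants, against 6.20 and 2.19 in WT. The remaining regions were chr15:8700818-8701052, chr18:40694493-40694928 and chr7:15710052-15710561. At chr7:15710052-15710561 the summits lay 113 and 175 bp from the region's start in the mutants, against 395 and 395 bp in WT. All 6 had a Sox3 peak in WT embryos at 24 hpf, as did all 6 that ranked lower and 89.6% of all shared regions. A p63 site at 80% epiboly was present at 1 of the 6 that ranked higher (chr18:40694493-40694928) and at 3 of the 6 that ranked lower, against 32.7% of all shared regions.

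The peak lists of the other WT stages are readouts that took no part in choosing or ranking these regions. A p63 site is a region that overlaps a p63 peak in both replicates of a stage. p63 at 36 hpf, the stage of the comparison, marked 1026 shared regions (4.56%). The study lists fewer uniquely mapped reads for both p63 libraries of this stage than for the p63 libraries of the other stages. Replicate 2 had by far the fewest, and a site needs a peak in both replicates. The effect of this on the choice of sites was not tested. The comparison at the 1026 regions was added after the data had been seen. There the mean percentile of Sox3 was 50.7 and 50.4 in the mutants, against 56.1 and 55.0 in WT, a gap of -5.00 points with no overlap of the groups (difference of the mean normal scores -0.17, exact two-sided permutation p 0.333, n = 2 libraries each). The SD between replicates was 0.26 points in the mutants and 0.74 points in WT.

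Sox3 was thus lower at 36 hpf p63 sites in the mutants relative to other shared regions, and not per megatag. The median summit pileup at these sites was 4.17 and 4.10 per megatag in the mutants, against 3.76 and 4.00 in WT, while over all shared regions it was 3.68 and 3.56 in the mutants, against 3.01 and 3.31 in WT. The same direction was seen with fold enrichment ranked (mean percentile 43.9 and 43.8 in the mutants, against 46.7 and 46.7 in WT) and with the centred log2 pileup (0.19 and 0.16 in the mutants, against 0.49 and 0.47 in WT, a gap of -0.31 on a scale where all shared regions moved by -0.14). With the rank among all peaks of a list the mean normal score at these sites was higher in the mutants by 0.33, less than the 0.48 by which all shared regions moved on that scale. The local background around these sites also differed. Its mean was 0.557 and 0.514 tags per megatag in the mutants, against 0.699 and 0.689 in WT, while over all shared regions it was 0.324 and 0.329 in the mutants, against 0.288 and 0.312 in WT. The median background at the sites was 0.262 and 0.259 in the mutants, against 0.223 and 0.234 in WT, the opposite order to the mean. The part of the background in the gap was not tested. The sites of each p63 replicate alone gave the same order, with 48.4 and 47.5 in the mutants, against 52.99 and 51.85 in WT, at the 2284 regions with a peak in p63 replicate 1, and 50.7 and 50.2 in the mutants, against 55.5 and 54.0 in WT, at the 1179 regions with a peak in p63 replicate 2.

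**Figure D3:**
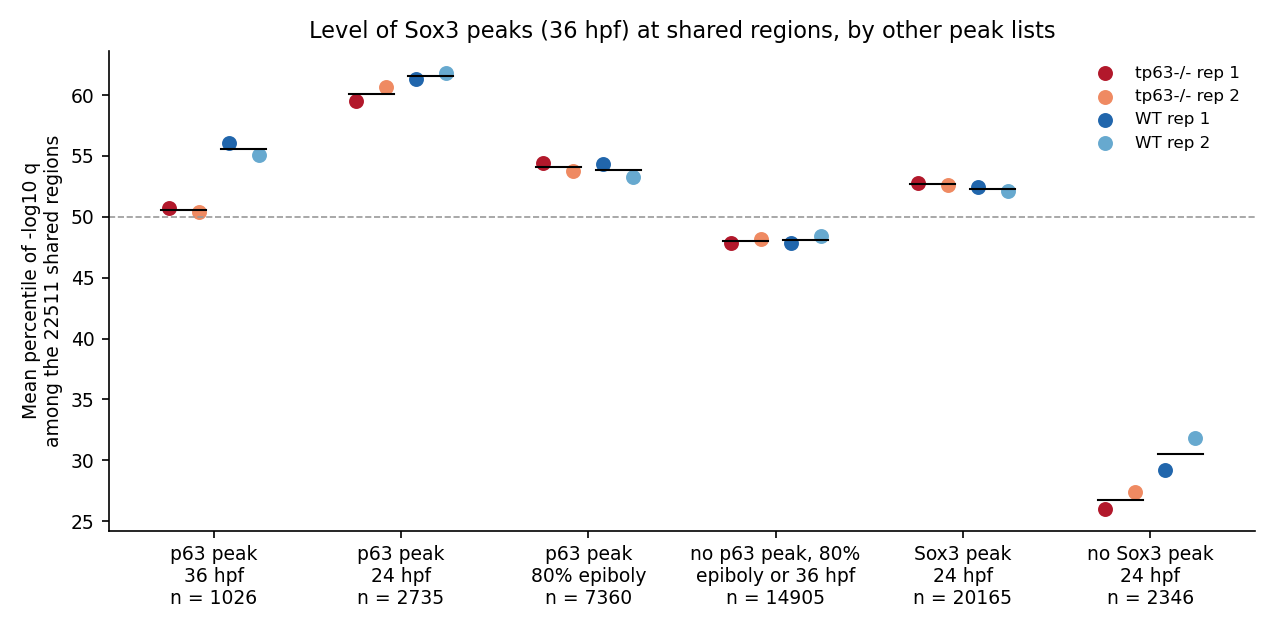
Mean percentile of -log10 q among the 22511 shared regions (vertical axis) in each library, for regions grouped by the other peak lists of WT embryos. Each point is a library, each black line the mean of a genotype and the dashed line the mean of all shared regions (50). Both mutant libraries (50.7 and 50.4) lie below both WT libraries (56.1 and 55.0) at 36 hpf p63 sites, and the genotypes overlap at 80% epiboly p63 sites.

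On average the gap at 36 hpf p63 sites was negative at every level of Sox3. Only differences of genotype means were taken by level, so overlap of the libraries within a level was not examined. When the shared regions were split by their mean rank into 5 classes of equal size, the difference at 36 hpf p63 sites was -5.04, -4.71, -5.72, -7.01 and -2.31 points from the weakest class to the strongest. Regions without such a site differed by -2.65, 0.0061, 2.21, 1.40 and 0.26 points in the same classes. The gap at 36 hpf p63 sites was also seen both with and without p63 at 80% epiboly. At the 780 regions that had p63 at 80% epiboly and at 36 hpf the mean percentile was 51.8 and 51.6 in the mutants, against 57.8 and 56.6 in WT. At the 246 regions with p63 at 36 hpf but not at 80% epiboly it was 47.5 and 46.5 in the mutants, against 50.5 and 50.1 in WT.

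Early p63 sites are regions with p63 at 80% epiboly and therefore during gastrulation. They made up 7360 shared regions (32.7%). Their mean Sox3 percentile was 54.4 and 53.8 in the mutants, against 54.4 and 53.3 in WT, so the libraries overlapped (difference of the mean normal scores 0.01, exact two-sided permutation p 0.667). At the 6580 of them without p63 at 36 hpf it was 54.8 and 54.0 in the mutants, against 53.96 and 52.9 in WT, a gap of 0.98 points between groups that did not overlap, whereas fold enrichment gave 53.2 and 52.4 in the mutants, against 53.6 and 52.5 in WT, with overlap. The sign of the small difference over all early sites changed with the scale, as listed under the dependence on processing. At the 2735 regions with p63 at 24 hpf the mean percentile was 59.5 and 60.6 in the mutants, against 61.3 and 61.9 in WT, a gap of -1.50 points between groups that did not overlap. With fold enrichment ranked it was 54.6 and 55.5 in the mutants, against 57.7 and 58.5 in WT, a gap of -3.05 points. On that scale the gap was -2.84 points at 36 hpf p63 sites and -0.54 at early p63 sites. It was -2.40 points at the 3422 regions with a Sox3 peak at 80% epiboly, so on the fold scale such a gap was not particular to 36 hpf p63 sites. With -log10 q ranked, those 3422 regions went the other way. Their mean percentile was 62.5 and 61.9 in the mutants, against 61.6 and 60.7 in WT, a gap of 1.01 points. The 3 stages overlap in their regions, and the difference between stages was not tested.

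The share of regions with p63 at 36 hpf was highest where Sox3 ranked lowest in the mutants relative to WT. It was 11.4% (188 of 1653, 95% Clopper-Pearson interval 9.88 to 13.003%) among regions that ranked lower in the mutants at an unadjusted p under 0.05, and 2.44% (32 of 1314, 1.67 to 3.42%) among those that ranked higher, against 4.56% of all shared regions. The intervals cover counting error only, and neighbouring regions are not independent. With all shared regions split by the rank difference into 10 classes of equal size, the share was 8.70% in the class lowest in the mutants and 2.75% in the highest. For p63 at 80% epiboly the share was 30.5% in the lowest class and 32.1% in the highest, with its maximum of 37.0% in the middle. p63 at 24 hpf marked 14.9% of the regions that ranked lower and 9.28% of those that ranked higher (unadjusted limma p under 0.05). Its share over all shared regions was 12.1%. Across the 10 classes it was 13.4% in the lowest and 9.02% in the highest, with its maximum of 17.6% in the middle.

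The earlier Sox3 list also differed between regions that ranked lower and higher. Sox3 had a peak at 24 hpf in 78.2% (76.2 to 80.2%) of the regions that ranked lower at an unadjusted p under 0.05 and in 90.4% (88.7 to 91.9%) of those that ranked higher, against 89.6% of all shared regions. The 2346 shared regions with no Sox3 peak at 24 hpf had a mean percentile of 26.003 and 27.38 in the mutants, against 29.2 and 31.8 in WT, a gap of -3.83 points. On this set the scale mattered, since the mean percentile of fold enrichment was 32.3 and 33.5 in the mutants, against 30.8 and 32.8 in WT, where the libraries overlapped. Only 1 library of Sox3 at 24 hpf was used, so its share has no replicate.

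**Figure D4:**
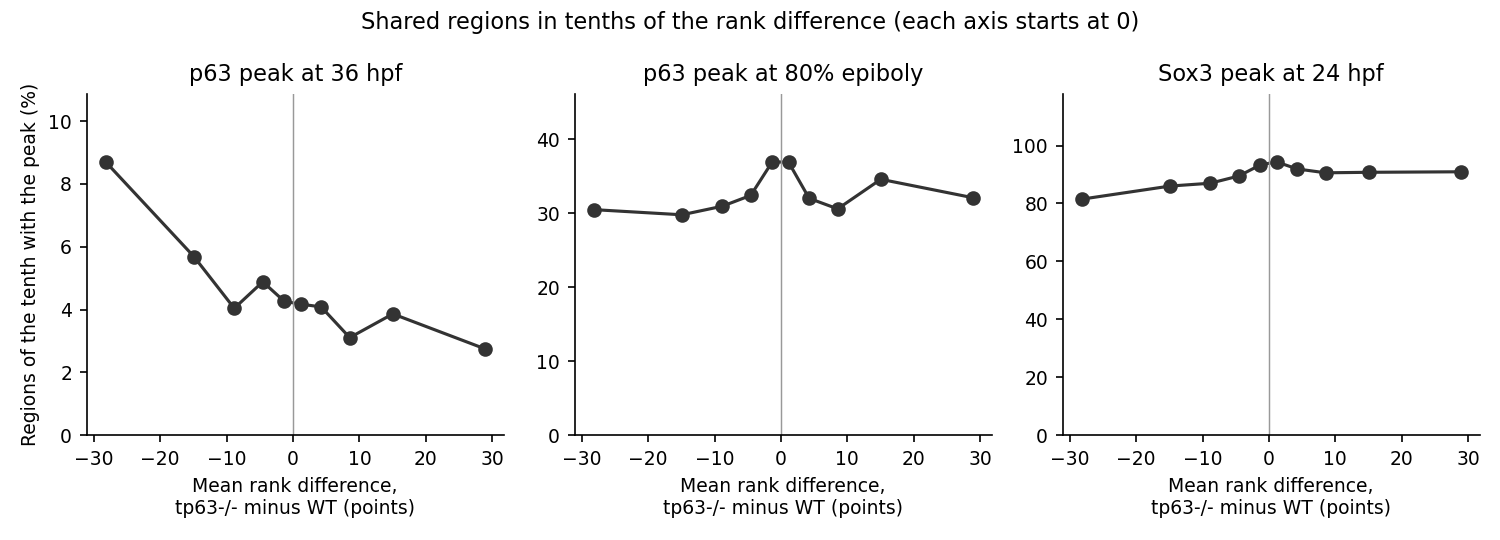
Share of shared regions (vertical axes, percent, from 0) that overlap a p63 peak at 36 hpf, a p63 peak at 80% epiboly or a Sox3 peak at 24 hpf, in 10 classes of equal size by the rank difference, mutant minus WT (horizontal axes, points). The p63 share at 36 hpf is 8.70% in the leftmost class and 2.75% in the rightmost, while the 80% epiboly share peaks in the middle.

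Peaks were wider in the mutant lists, where shared regions were also more significant. The median width over the shared regions was 399 and 404 bp in the mutants, against 292 and 258 bp in WT. The difference of the median log2 width was 0.55 (8.65 ± 0.01 in the mutants and 8.10 ± 0.13 in WT, SD, n = 2 each, exact two-sided permutation p 0.333), and both mutant peaks were wider than both WT peaks at 16835 of the shared regions (74.8%). Among peaks of all lists with a -log10 q of 20 to 25 the median width was 297 and 315 bp in the mutants, against 292 and 299 bp in WT. For a -log10 q of 40 to 50 it was 394 and 422 bp in the mutants, against 387 and 408 bp in WT. The libraries of the genotypes overlapped in both ranges, and in 10 of the 17 ranges of -log10 q compared. In the other 7 both mutant medians exceeded both WT medians, and in none did both lie below. The excess was at most 9 bp on average below a -log10 q of 10 and 32.3 to 103.8 bp from 80 upwards. The largest excess came from a -log10 q of 130 to 240. The WT lists held only 27 and 10 peaks there, against 386 and 171 in the mutants. Peaks of matched significance thus differed in width by much less than the shared regions as a whole up to a -log10 q of 80.

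With each list centred on its own median, no region differed in width at an adjusted limma p under 0.05 (0.0%, smallest adjusted p 0.227). At an unadjusted p under 0.05, 1501 regions (6.67%) were wider and 1294 (5.75%) narrower in the mutants. The regions of smallest p that were wider lay at chr19:33012885-33013797, chr2:50327649-50328495 and chr5:30386230-30387751. At chr19:33012885-33013797 the peak spanned 912 and 882 bp in the mutants, against 169 and 134 bp in WT. At chr2:50327649-50328495 it spanned 831 and 744 bp in the mutants, against 134 and 129 bp in WT, where WT replicate 1 had split the region into 3 peaks. At these places a stretch called as a single peak in the mutant lists was called in pieces or in part in the WT lists. The narrower regions were chr15:18701417-18701880 (176 and 166 bp in the mutants, against 307 and 291 bp in WT), chr5:30725406-30725654 (144 and 140 bp in the mutants, against 247 and 214 bp in WT) and chr6:7324091-7324378, also named for its rank (143 and 140 bp in the mutants, against 288 and 210 bp in WT).

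Summits, the positions of highest pileup, stayed in place at nearly all shared regions. The median distance between the summits of a region was 21 bp between the mutant libraries and 31 bp between the WT libraries. The 4 pairs of a mutant and a WT library gave 24 to 29 bp, and 87.4% to 89.4% of their summits lay within 100 bp of each other, against 91.3% within the mutants and 86.1% within WT. The mean of the pairs between genotypes exceeded that of the pairs within a genotype by 1.00 bp (exact permutation p 0.667 over the 3 ways to pair the libraries). Both mutant summits lay on the same side of both WT summits at 7477 regions (33.2%). Libraries of equal spread that do not differ by genotype would give a share of about 0.333. The spread was not equal here (21 bp within the mutants, 31 bp within WT). The closeness of the observed share to 0.333 therefore cannot decide whether summits differ by genotype. The summits were at least 100 bp away at only 339 regions (1.51%).

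A shifted summit passed the adjusted threshold of limma at 5 of 22511 regions (0.0222%), with 1235 (5.49%) at an unadjusted p under 0.05. At chr5:30386230-30387751 the summit lay 357 and 371 bp from the region's start in the mutants, against 1395 and 1396 bp in WT, a shift of -1031.5 ± 14.1 bp (SE, limma adjusted p 0.0332). The mutant peaks spanned 1513 and 1353 bp there, against 231 and 231 bp in WT, so the WT lists held only the far end of the stretch. At chr6:29801642-29802905 the summit lay at 985 and 970 bp in the mutants, against 134 and 106 bp in WT (shift 857.5 bp, adjusted p 0.0412). At chr1:37612549-37613853 it lay at 417 and 390 bp in the mutants, against 1178 and 1168 bp in WT (shift -769.5 bp, adjusted p 0.0412).

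The other regions past the threshold, named after their values were seen, were chr15:21410814-21412037 and chr8:34831373-34832780. The first is among the strongest shared regions, at percentile 92.8 and 91.4 in the mutants, against 93.7 and 95.5 in WT, and its summit lay at 965 and 973 bp in the mutants, against 253 and 278 bp in WT. The second has p63 peaks at all 3 stages and Sox3 peaks at 24 hpf and 80% epiboly. Its summit lay at 1289 and 1293 bp in the mutants, against 708 and 701 bp in WT. At 4 of the 5 regions at least 1 list held several peaks, and the summit compared is that of the strongest of them. The calls did not hold when a library was left out, but a fit on the remaining libraries has little power. That loss therefore cannot decide whether a call rests on a single library.

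**Figure D5:**
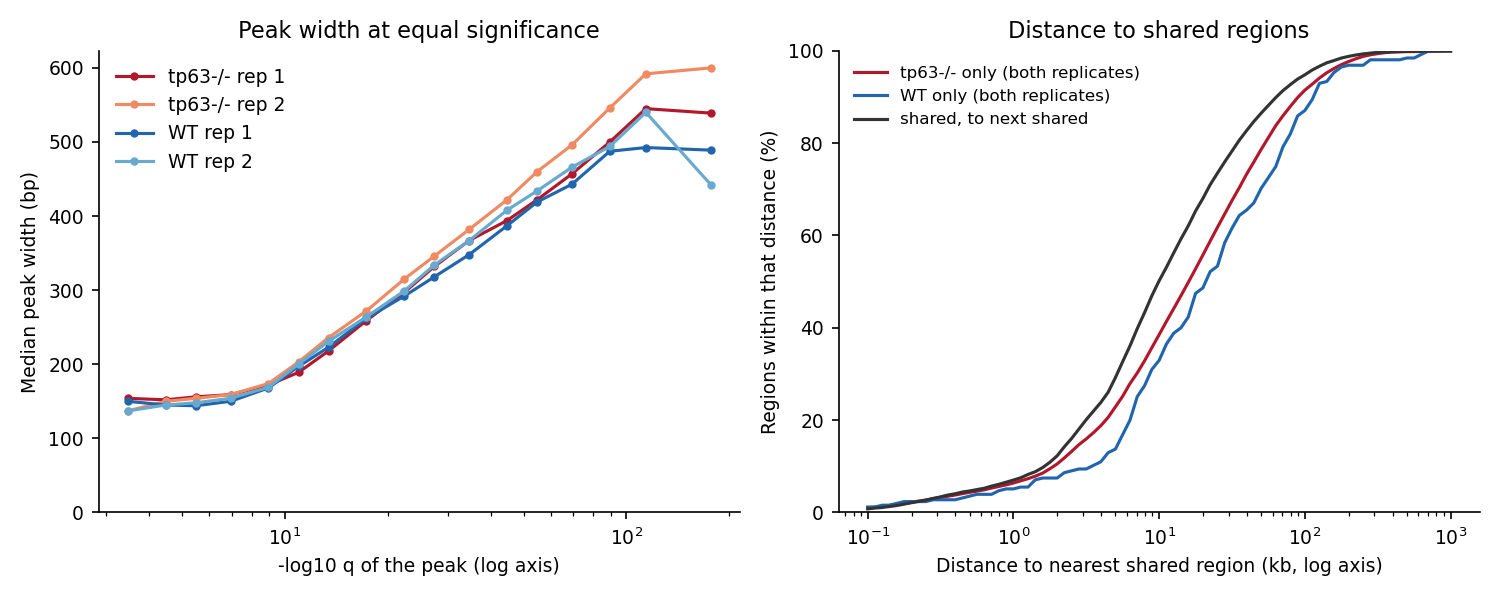
Left: median peak width (bp) of all peaks in each list against their -log10 q (log axis), where the 4 libraries lie close together up to a -log10 q of 80 and both mutant medians are above both WT medians beyond it. Beyond 80 the WT lists hold 10 to 446 peaks per range, against 171 to 1619 in the mutants. Right: cumulative share of regions (percent) against the distance to the nearest shared region (kb, log axis), where 38.5% of the mutant-only, 32.9% of the WT-only and 50.2% of the shared regions lie within 10 kb of a shared region.

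Most mutant-only regions lay kilobases away from the shared ones. Their median distance to the nearest shared region was 15.9 kb over the 13242 on a sequence that holds a shared region, against 20.4 kb for the 255 such WT-only regions. From a shared region to the next shared one the median was 9.95 kb. Only 6.37% of the mutant-only regions lay within 1 kb of a shared region, against 5.10% of the WT-only regions, and 7.01% of the shared regions had another one that close. At the far end 1129 of the 13242 mutant-only regions lay more than 100 kb away. Within 100 kb lay 91.5% of the mutant-only, 87.1% of the WT-only and 94.8% of the shared regions.

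Library by library, regions of a list with no peak in either library of the other genotype lay at a median of 21.0 and 17.3 kb from a shared region in the mutants, against 31.1 and 25.4 kb in WT. The difference of the median log2 distance was -0.56 (exact two-sided permutation p 0.333, 14.2 ± 0.19 in the mutants and 14.8 ± 0.21 in WT, SD, n = 2 each). It was -0.22 with lists of equal length and -0.14, with overlapping libraries, when peaks were limited to a fold enrichment of at least 5.

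The strength of mutant-only regions and their earlier Sox3 peaks varied little with the distance from a shared region. Those within 1 kb of a shared region had a median percentile of 40.3 in the mutant lists and those more than 100 kb away one of 37.8. Sox3 had a peak at 24 hpf in 50.7% of the nearest and in 45.0% of the farthest class. Over all mutant-only regions this share was 49.7%, against 34.0% (28.3 to 40.1%) of the WT-only regions, so nearly as many mutant-only regions had been called in WT embryos at an earlier stage as had not. p63 at 36 hpf overlapped 1.59% (1.38 to 1.81%) of the mutant-only and 7.63% (4.72 to 11.5%) of the WT-only regions, against 4.56% of the shared ones. For p63 at 80% epiboly the peak was present in 2139 of 13367 mutant-only regions and in 13.4% of the WT-only regions, against 32.7% of the shared ones.

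Single mutant-only regions could be strong. At chr23:8241995-8242256, which lay 251.5 kb from the nearest shared region, the mutant lists gave 58 and 42 tags at the summit, fold enrichments of 21.2 and 18.5 and percentiles of 93.4 and 86.9 among all peaks of their list, with no peak in either WT list, no Sox3 peak at the earlier stages and no p63 site of any stage. At chr6:55037785-55038090 the values were 55 and 37 tags with fold enrichments of 22.2 and 15.5, and at chr21:22856137-22856404 43 and 43 tags with fold enrichments of 19.4 and 16.8. Both had a Sox3 peak in WT embryos at 24 hpf. Within 1 kb of a shared region the strongest was chr20:12749135-12749598, 0.60 kb away, with 86 and 64 tags in the mutants and with p63 peaks in WT at 80% epiboly and 24 hpf. The others were chr5:7978767-7979171 (50 and 47 tags) and chr20:4842286-4842546 (55 and 38 tags).

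On chromosomes 1 to 25, 1127 mutant-only and 33 WT-only regions lay more than 100 kb from a shared region. Over all sequences that hold a shared region, 91.5% of the mutant-only and 87.1% of the WT-only regions lay within 100 kb. Tags are not comparable between lists of such different depth. At chr3:21810350-21810732, 117.6 kb from a shared region, WT had 19 and 17 tags and fold enrichments of 10.7 and 10.4. No Sox3 peak of an earlier stage and no p63 site of any stage lay there. The other far regions were chr4:33491105-33491292 (23 and 11 tags) and chr1:6157129-6157318 (20 and 11 tags). Near shared regions the strongest was chr5:36091119-36091317, 0.17 kb away, with 55 and 56 tags but fold enrichments of 5.61 and 6.11. It was followed by chr7:52733828-52733974 (48 and 36 tags) and chr10:16860529-16860667 (76 and 62 tags), whose fold enrichments lay between 2.67 and 4.56. These WT-only regions beside shared ones thus stood on a high local background.

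Peaks were spread over the 25 chromosomes in nearly the same way in both genotypes. The log2 difference in the share of a list's peaks ran from -0.08 on chromosome 17 to 0.07 on chromosome 12. No chromosome passed an adjusted limma p of 0.05 (0.0% of 25, smallest adjusted p 0.0703) and 6 (24.0%) had an unadjusted p under 0.05. Chromosome 17 held 4.03% and 4.10% of the peaks in the mutants, against 4.24% and 4.33% in WT. Chromosome 12 held 3.41% and 3.36% in the mutants, against 3.29% and 3.14% in WT. The groups did not overlap on either, but the gaps were small beside the shares themselves. Without WT replicate 1, a fit in which the remaining WT library is assumed to vary like the mutants, 9 chromosomes passed, and without WT replicate 2 it was 1.

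The ratio of mutant-only to shared regions was similar along the genome, between 0.50 on chromosome 13 and 0.67 on chromosome 12, with a median of 0.60. Regions that ranked higher in both mutants than in both WT libraries made up 19.2% to 26.1% of the shared regions of a chromosome, and those that ranked lower 19.3% to 29.1%. The highest share of lower-ranking regions was on chromosome 4, which also held 6.49% of the WT-only regions (17 of 262, 95% Clopper-Pearson interval 3.82 to 10.2%), against 2.95% of the mutant-only and 2.68% of the shared regions. Chromosome 2 held more of the WT-only regions, 6.87% (18 of 262), against 4.00% of the shared ones. The interval does not allow for the choice of chromosome 4 among all chromosomes. In 5-Mb bins, 0 of 273 (0.0%) passed the adjusted limma threshold and 13 (4.76%) had an unadjusted p under 0.05. The count was 2 without mutant replicate 2, 10 without WT replicate 1, 2 without WT replicate 2 and 25 with peaks limited to a -log10 q of at least 10, a limit at which 1 chromosome also passed.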

How the data were processed

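The 4 Sox3 lists at 36 hpf were used, with the 8 other lists only for overlap. Per the labels and the study's methods, the authors aligned reads with Bowtie to GRCz10 (danRer10) and called narrow peaks for each library on its own with MACS2 at a false discovery rate limit, versions not given in the sources used here. In the deposited lists fold enrichment is the ratio of summit pileup to local background (1 added to both), significance is given as −log10 p and −log10 q, and the score restates −log10 q times 10 without decimals. None is scaled between libraries. Peaks on sequences other than chromosomes 1 to 25 (1.61% to 1.82% per list) stayed in. All 4 lists were used as deposited, and values were compared within lists.

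Summit pileup and background were recovered from fold enrichment and −log10 p by the Poisson formula (largest error 2.05e-04 in −log10 p), and tags from the lowest background, the fragment length (the narrowest peak, 129 to 134 bp) and a genome size of 1.5 Gb. Values per region were tested with limma 3.58.1 in R 4.3.3 (lmFit and eBayes, genotype as the only term, Benjamini-Hochberg over all shared regions, chromosomes or bins with at least 20 peaks a list on average, threshold 0.05). These were normal scores of ranks, log2 widths centred per list, summit positions and log2 shares (1 peak added per bin). Library values were compared by exact permutation over the 4 libraries. Fits were tested on simulated data. The study calls the libraries biological replicates without saying whether they came from separate spawnings, and p-values measure the spread between these libraries. Alternatives were other scales, thresholds, list lengths, depth, overlap rules, left-out libraries and a replicate block. The regions named were the 6 by rank in each direction and the 3 by width in each direction with the smallest limma p among groups that do not overlap (none passed), the 3 largest summit shifts past the threshold, and the 3 strongest mutant-only and WT-only regions over 100 kb from and within 1 kb of a shared region. The comparisons and lists were chosen with earlier results of these data known. Gene annotation and sequence of GRCz10 were not used here. Python 3.11.15 with scipy 1.17.1 was used.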

Additional observations from a re-analysis of the deposited data

How the results depend on the processing

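Of the 137 values obtained under the settings tried for 12 results, 112 kept their direction and their side of the threshold. The library-level results cannot give a permutation p below 0.333, so for them only the direction could change. The rank and width results were 0 regions in every setting. The rank difference at early p63 sites turned from 0.01 to -0.0207 with fold enrichment ranked, to -0.0100 with a -log10 q of at least 10, to -0.0072 with lists of equal length, to -0.0039 with an overlap of at least 50%, and to -0.14 (log2) with the summit pileup, a scale chosen after seeing the data on which all shared regions moved by the same -0.14. That at 36 hpf p63 sites turned from -0.17 to 0.33 with ranks among all peaks, where all shared regions moved by 0.48, and lay between -0.18 and -0.15 with each library left out. The summit distance between minus within genotypes lay between -4.50 and 7.50 bp with each library left out. The 5 summit shifts became 1 with a fold enrichment of at least 5 and 8 with lists of equal length. They became 0 with the replicate block. With an overlap of at least 50% they were 0, a limit that leaves out regions with distant summits by construction. They did not hold with a library left out, where the fit has little power, so that loss cannot decide whether a shift rests on a single library. The chromosomes with a different share became 1 with a -log10 q of at least 10 and 1 with lists of equal length, and 0 to 9 with each library left out. The 5-Mb bins became 25 with a -log10 q of at least 10, 21 with the replicate block, and 0 to 10 with each library left out. The cause was not tested in any of these. The labels do not say whether same-numbered libraries share a batch. Deviations of same-numbered libraries correlated at 0.12 (rank), 0.15 (width), 0.07 (summit), 0.71 (chromosomes) and 0.65 (bins), with only 2 pairs. The block changed no other call. Where a library was left out, the lone library of its genotype was assumed to vary like the other genotype. A region absent from the WT lists passed no threshold at 7.97 and 5.75 M tags. With the tags of called peaks scaled to the shallowest library, the mutant-only class held 8812 regions, against 13367 as deposited. No peak was called anew in that setting. With lists of equal length the class held 2408 regions. The part of depth in this class was not tested.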
